A study of Mus musculus with 6 samples.

Results

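Genes of vesicle trafficking and the secretory pathway were followed in mouse CD4+ T cells with and without tunicamycin. Members were chosen by gene symbol alone, from the families Sec, Sar1, Tmed, Lman, Ergic, Kdelr, Cop, Trappc, Stx, Vamp, Arf, Arfgap, Arl, Rab, Vps and Snx followed by the number or letter of a family member. Of 13685 gene rows analysed, 63 were members. All 63 are annotated as protein-coding, and in the GENCODE M21 annotation the symbol patterns match 267 genes of this type, so most of the machinery was not analysed here. In this annotation 25 of the matching genes have a single transcript, and 20 of these had a row. Of the 109 with at least 6 transcripts, 4 had a row. No gene of the Sec61 translocon group or of the Sec11 signal peptidase group had a row, and the COPI coat was represented by Copb2 alone.

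Secreted and membrane proteins enter the endoplasmic reticulum and leave it in COPII-coated vesicles, whose assembly is started by the GTPase Sar1. TRAPP tethers, Rab GTPases and SNARE proteins then direct each vesicle to its target membrane, while COPI vesicles return escaped residents, which KDEL receptors recognise. Beyond the Golgi, Arf and Arl GTPases, Vps proteins of the ESCRT, HOPS and related complexes, and sorting nexins steer cargo between the plasma membrane, endosomes and lysosomes. In T cells this traffic recycles the antigen receptor and delivers cytokines. Tunicamycin blocks N-glycan synthesis at its start and so loads the endoplasmic reticulum with misfolded glycoproteins. In many cell types the transcription factors of the unfolded protein response then raise parts of the secretory machinery.

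There were 6 libraries of total RNA, 3 from vehicle controls and 3 from cells cultured for 4 h in tunicamycin (0.15 µg/mL). All cells were WT and came from spleen and mesenteric lymph node of C57BL/6 mice of unstated age. They were isolated as CD4+ T cells, and the CD25- fraction, without regulatory T cells, was cultured at 1000000 cells a well. The titles call the controls untreated, whereas the treatment protocol states that they received vehicle. Each title carries a technical replicate number, 1 to 3, within its group. The titles do not state whether these libraries came from 1 preparation, and a p-value here reflects no more than library-to-library spread.

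Summed counts of the rows analysed were 7412151 to 9495725 in vehicle and 10584276 to 11211270 in tunicamycin libraries. These sums cover a part of each transcriptome and are not library depths. Of 10 T cell markers 6 had a row and 6 were tested, with summed levels of 2410 to 2680 transcripts per 1000000 (TPM), while Cd4 itself was not analysed here. Of 10 plasma cell markers 6 had a row, with Igha the most abundant and Tnfrsf17 at 0 in 5 of 6 libraries. Their sum was 106, 187 and 22.8 TPM in vehicle replicates 1, 2 and 3, and 113, 198 and 26.4 TPM in tunicamycin replicates 1, 2 and 3. It thus followed the replicate number more than the treatment. Il2ra, which encodes CD25 and was the one regulatory T cell marker with a row, had 589 to 1417 counts in every library and a log2 fold change of 0.30 (95% interval -0.04 to 0.63, edgeR adjusted p = 0.832). Of 6 NK cell markers 3 had a row, and Gzma was at 2.01, 1.42 and 2.73 TPM in vehicle and 5.73, 5.74 and 2.32 TPM in tunicamycin. Its groups overlapped (edgeR unadjusted p = 0.0252, adjusted p = 0.648). The part of these cell types in the members' levels was not tested. In bulk RNA, a change in the share of a cell type and a change of RNA per cell cannot be told apart.

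Upstream sequences are shown for Kdelr3 and Rab5a, which hold sequence motifs linked to organelle stress, lysosomal biogenesis or cyclic AMP signalling. Arl2, Arl4d and Rab24 also held a match and are not printed. RefSeq windows on GRCm38.p6 were matched to 46 of the 63 members and to 36 of the 48 tested ones. Kdelr2 had no window, so its upstream sequence was not searched. The 250 bases before the start site were searched on both strands for 7 motifs. These were ERSE, ERSE-II and UPRE (TGACGTGG) of the unfolded protein response, AARE (ATTGCATCA) of amino acid stress, GASE (ACGTGGC) of Golgi stress, CLEAR of lysosomal genes, and CRE (TGACGTCA). UPRE and GASE share letters, so 1 stretch can match both. Capitals mark the matched letters below.
Kdelr3, chr15:79516158-79516407, plus strand, holding UPRE and GASE in reverse complement: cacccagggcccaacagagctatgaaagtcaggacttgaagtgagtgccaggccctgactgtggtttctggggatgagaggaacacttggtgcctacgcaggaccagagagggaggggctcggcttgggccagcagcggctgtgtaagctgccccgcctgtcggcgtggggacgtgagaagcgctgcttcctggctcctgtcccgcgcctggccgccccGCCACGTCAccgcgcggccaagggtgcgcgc
Rab5a, chr17:53478984-53479233, plus strand, holding CLEAR and, nearer the start site, CRE: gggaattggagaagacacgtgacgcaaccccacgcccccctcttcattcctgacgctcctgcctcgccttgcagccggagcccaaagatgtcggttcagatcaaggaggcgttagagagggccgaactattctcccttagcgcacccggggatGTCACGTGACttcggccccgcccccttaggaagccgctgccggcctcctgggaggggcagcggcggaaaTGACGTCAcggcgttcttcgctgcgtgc

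Kdelr3, whose upstream stretch matches UPRE, was at 0 counts in every library of both groups. Among the 36 tested members with a window, 0 held ERSE, ERSE-II, UPRE or AARE. These motifs were in 0.13%, 0.037%, 0.603% and 0.192% of all 27025 genes with a window. CLEAR was found upstream of Arl2 and Rab5a, 5.56% of the tested members against 0.27% of all genes. CRE was found upstream of Arl4d and Rab5a, also 5.56%, against 1.77% of all genes, and GASE upstream of Rab24, 2.78% against 2.33%. A match is a description of letters only, and an absent match speaks for this window alone. Of the genes with a match, Kdelr3 was not tested and the others did not pass the test of the treatment described below.

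The members covered a wide range of levels, which are compared between genes in TPM because this unit is scaled by length. Of the 63, 5 had a mean of at least 100 TPM, 28 had 10 to 100, 7 had 1 to 10, and 8 tested members were under 1. Another 8 had too few counts to be tested, at most 13 in any library. They included the Rab genes Rab38, Rab39, Rab42 and Rab9b. The remaining 7, Arl13a, Arl14, Kdelr3, Sec14l5, Tmed6, Tmed11 and Trappc3l, were at 0 in every library. A count of 0 allows up to 3 counts, or 0.263 to 0.403 counts per 1000000 (CPM), in each library, which covers counting error only.

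Vps37b, a subunit of the ESCRT-I complex that sorts ubiquitinated cargo into endosomal vesicles, was the most abundant member by far. Its level was 781, 825 and 945 TPM in vehicle replicates 1, 2 and 3 and 768, 870 and 1007 TPM in tunicamycin replicates 1, 2 and 3. The groups overlapped, and the libraries numbered 3 were the highest in both. Vps37b alone made up 29.3% to 35.7% of the summed TPM of all members. Next came Arl6ip5, an Arl6-interacting membrane protein of the endoplasmic reticulum, with a mean of 216 TPM (range 211 to 227), and Vps28, another ESCRT-I subunit, with 177 TPM (164 to 191). The ranges of these 3 genes did not meet. Arf6, which recycles membrane at the cell surface, at 113 TPM (105 to 122), and Rab18, a Rab of the endoplasmic reticulum and lipid droplets, at 109 TPM (90.6 to 130), overlapped. Further down, neighbours in the order had ranges that met except between Rab5b and Snx4, Vps41 and Stx12, and Trappc5 and Arl2. Without Vps37b, members summed to 1821 to 1890 TPM in vehicle and 1813 to 1854 TPM in tunicamycin.

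**Figure D1:**
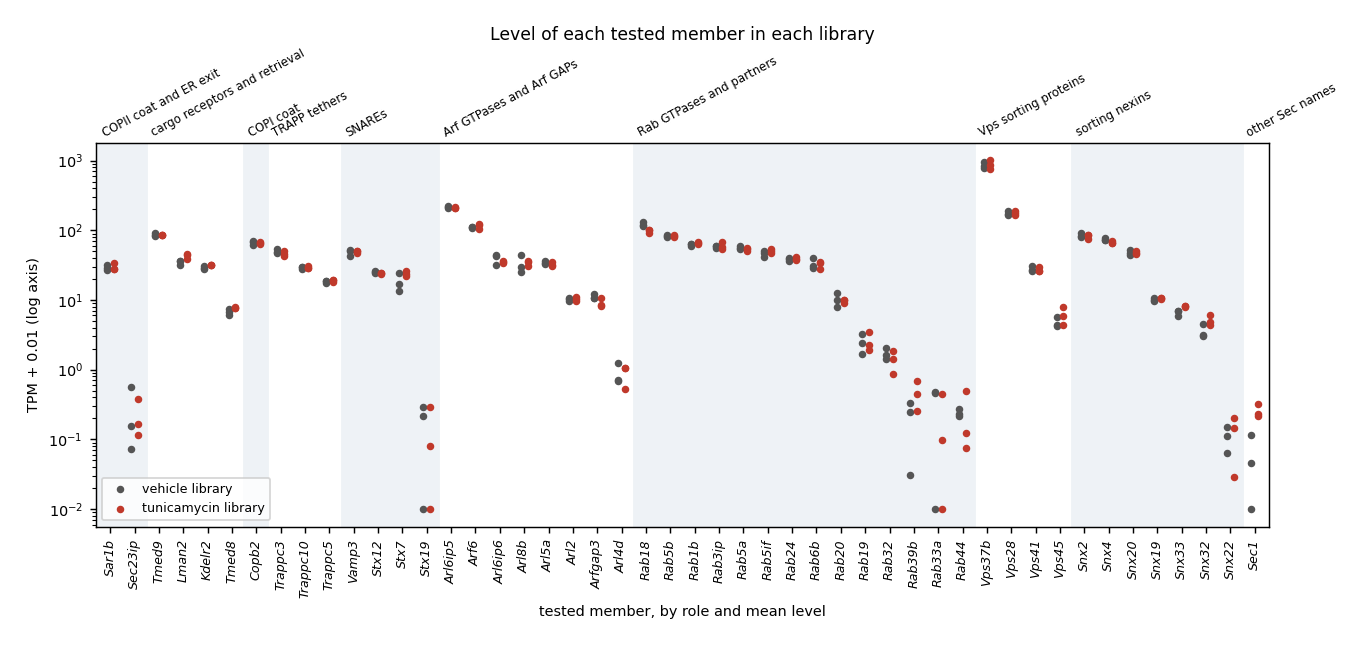
TPM of the 48 tested members (log axis, with 0.01 added so that zeros can be drawn), ordered by role and level, with a point for each of 3 vehicle (grey) and 3 tunicamycin (red) libraries. Vps37b lies at 768 to 1007 TPM and 8 members lie under a mean of 1 TPM, and the libraries of both groups lie close together for most of the others.

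Setting tunicamycin against vehicle addresses how transcripts respond to a drug that disturbs protein folding in the endoplasmic reticulum. Of 48 members tested, 0 were called higher and 0 lower by edgeR's quasi-likelihood test at an adjusted p under 0.05, where 0.0554% of 3613 genes were higher and 0.0277% lower. DESeq2 called 0 members in either direction, where 0.332% of all genes were higher and 0.304% lower. On log2(TPM + 1), limma called 0 members, where 0.0277% of all genes were higher and 0 genes lower. With the replicate number as a block, edgeR again called 0 members, against 0.387% of all genes higher and 0.609% lower. At an unadjusted p under 0.05 that fit had 3 of 48 members higher and 9 of 48 lower, against 5.26% and 5.45% of all genes. The share lower was thus larger among members than among all genes, which is a description only. With the block and effective-length offsets it called 0 members, against 0.083% of all genes in each direction. The lowest edgeR adjusted p of a member was 0.545. At an unadjusted p under 0.05 without the block there were 2 members higher, Snx32 and Sec1, and 3 lower, Trappc3, Rab18 and Snx4, against 3.24% and 3.18% of all genes tested, 6.42% together. The median log2 fold change was -0.045 over the tested members and 0.001 over all genes tested, with 37.5% of members and 50.1% of all genes above 0. On log2(TPM + 1) these medians were 0.016 and 0.046, so the sign of the members' median depended on the unit. The share above 0 was then 58.3% of members and 62.4% of all genes. With no composition factor it was 47.9% and 59.7%, and with effective-length offsets 29.2% and 49.5%.

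The intervals of the well-measured members were narrow. Among the 38 members whose mean reached 5 log2 CPM, 37 had a 95% interval of the log2 fold change inside a 1.5-fold change in either direction. For all genes at this level the number was 1793 of 1912. The exception was Snx32. The median width from centre to bound was 0.175 on the log2 scale, without adjustment for the number of genes. Differences larger than this were also not called, such as that of Trappc3 below. For the 10 tested members under this level the intervals were wide. The narrowest was that of Rab19, at -0.69 to 0.72. Arl4d had -1.09 to 1.02, and Rab33a had -3.87 to 2.095.

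**Figure D2:**
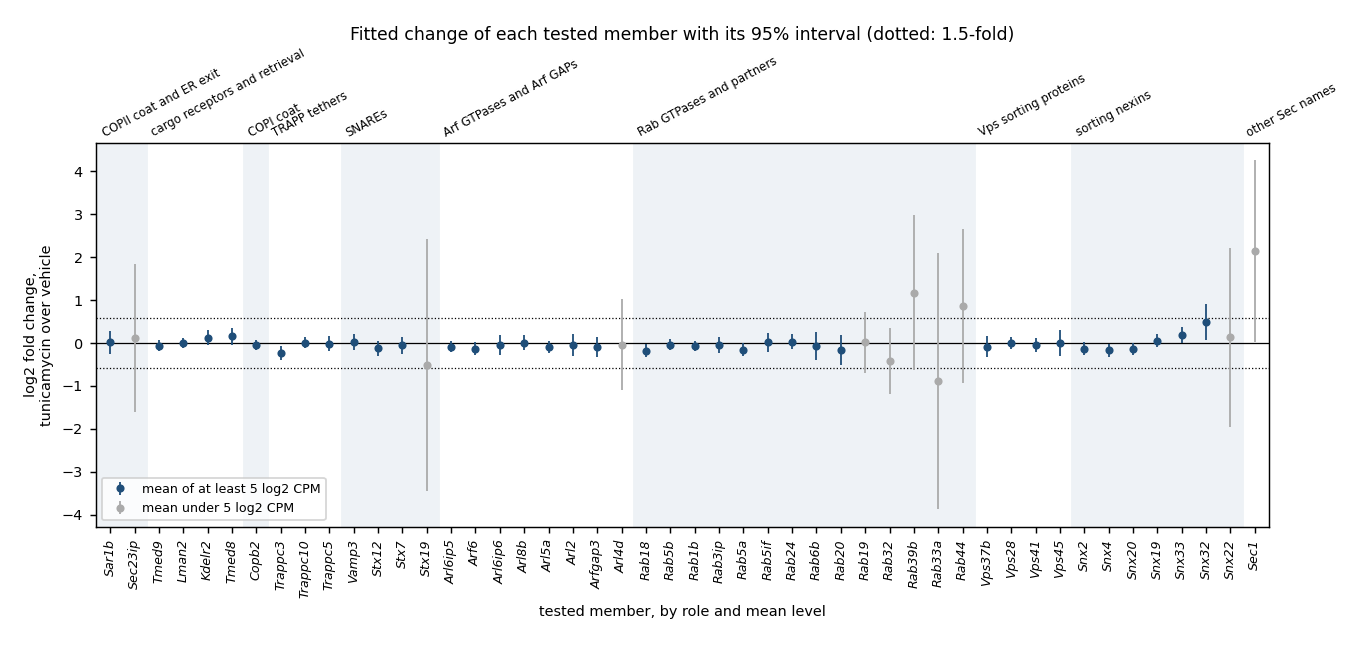
Fitted log2 fold change of tunicamycin over vehicle (y axis) with its 95% interval for each of the 48 tested members, ordered by role and level. Blue marks a mean of at least 5 log2 CPM, where 37 of 38 intervals stay between the dotted lines of a 1.5-fold change, and grey marks lower means, where intervals are wide.

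The early secretory pathway held 7 tested members. Sar1b, the GTPase that starts COPII assembly, was at 80.4, 67.6 and 76.0 CPM in vehicle replicates 1, 2 and 3 and at 70.5, 85.5 and 70.5 CPM in tunicamycin replicates 1, 2 and 3. Its groups overlapped, with a log2 fold change of 0.02 (95% interval -0.24 to 0.28). Sec23ip, a partner of the COPII coat protein Sec23 at exit sites, had at most 19 counts in any library and is not informative.

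Kdelr2 encodes a receptor that returns residents carrying the KDEL signal to the endoplasmic reticulum. It was at 128, 118 and 129 CPM in vehicle and at 139, 133 and 136 CPM in tunicamycin. All 3 tunicamycin libraries were above all 3 vehicle libraries, but the log2 fold change of 0.12 (95% interval -0.06 to 0.30) did not pass (edgeR adjusted p = 0.879). Tmed8, a member by its Tmed name, was at 138, 116 and 130 CPM in vehicle and at 143, 139 and 145 CPM in tunicamycin. Its groups were also apart, at 0.15 (95% interval -0.04 to 0.34, edgeR adjusted p = 0.836). Tmed9, of the p24 cargo receptor family, and Copb2, the beta-prime subunit of the COPI coat, overlapped between groups at -0.06 (95% interval -0.19 to 0.07) and -0.055 (95% interval -0.17 to 0.06).

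Lman2, a lectin that carries high-mannose glycoproteins, depended on the unit. In CPM it was at 473, 443 and 451 in vehicle and 461, 445 and 458 in tunicamycin, a log2 fold change of 0.00 (95% interval -0.12 to 0.12). In TPM it was at 35.8, 35.8 and 32.3 in vehicle and 39.4, 43.7 and 45.7 in tunicamycin, so the groups overlapped in CPM and did not in TPM. With an effective-length offset and a replicate block its edgeR adjusted p = 0.314, so it was not called on this scale either. Of 12 genes listed as reported targets of the unfolded protein response among these families, Kdelr2 and Lman2 were tested, Kdelr3 was at 0, and the other 9 were not analysed here.

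Among TRAPP tethers, Trappc3, a core subunit, had the lowest unadjusted p of the members. Its level was 216, 196 and 204 CPM in vehicle replicates 1, 2 and 3 and 165, 184 and 178 CPM in tunicamycin replicates 1, 2 and 3. The tunicamycin libraries were all below the vehicle libraries, with a log2 fold change of -0.23, an SE of 0.07 and a 95% interval of -0.39 to -0.06 (edgeR adjusted p = 0.545). On GRCm38 the gene lies on chromosome 4 from 126262325 to 126275883. Its core partner Trappc5 was at 179.6 ± 11.01 and 178.4 ± 10.99 CPM (SD, n = 3 each) in vehicle and tunicamycin. Trappc10, of the TRAPPII form, was at 457 ± 10.96 and 461 ± 19.2 CPM (SD, n = 3 each), so both overlapped between groups.

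Of 4 tested SNARE genes, 0 were called in either direction and none had groups apart. Vamp3, a SNARE of recycling endosomes, was at 175 ± 15.7 CPM (SD, n = 3) in vehicle and 178 ± 6.83 CPM (SD, n = 3) in tunicamycin. Stx12, a syntaxin of the same compartment, was at 136, 151 and 155 CPM in vehicle and 135, 133 and 139 CPM in tunicamycin, so tunicamycin replicate 3 overlapped vehicle replicate 1. Its log2 fold change was -0.12 (95% interval -0.30 to 0.06). Stx7, a late endosomal syntaxin, was at -0.06 (95% interval -0.26 to 0.15) in counts and at 0.40 on log2(TPM + 1), and was not called by either test. In TPM it was at 13.6, 24.4 and 17.0 in vehicle and 23.7, 25.7 and 22.2 in tunicamycin, and vehicle replicate 2 overlapped the tunicamycin libraries.

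Among the Arf group, 7 of 8 tested members had a log2 fold change below 0 and 0 passed, with a median of -0.07, where 49.9% of all genes were below 0. On log2(TPM + 1) the number was 4 of 8, where 37.6% of all genes were below 0. Arf6 was at 668, 669 and 721 CPM in vehicle replicates 1, 2 and 3 and at 657, 562 and 653 CPM in tunicamycin replicates 1, 2 and 3. In CPM the groups were apart, with tunicamycin replicate 2 the lowest, at a log2 fold change of -0.14 (95% interval -0.29 to 0.01, edgeR adjusted p = 0.822). In TPM the order was different, with 112, 108 and 113 in vehicle and 122, 105 and 121 in tunicamycin, and the groups overlapped. The log2 fold change was -0.06 without tunicamycin replicate 2 and 0.001 with effective-length offsets. Arl5a, a GTPase of the trans-Golgi network, was at 306, 333 and 315 CPM in vehicle and 294, 294 and 305 CPM in tunicamycin. Its groups were apart by a narrow gap, at -0.10 (95% interval -0.23 to 0.04). Arl6ip5 was at -0.09 (95% interval -0.21 to 0.04), and Arfgap3, which switches off Arf1 at the Golgi, was at -0.095 (95% interval -0.33 to 0.14).

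The Rab group was the most numerous, with 14 tested members and 0 called. Rab18 was at 291, 287 and 329 CPM in vehicle replicates 1, 2 and 3 and at 261, 267 and 275 CPM in tunicamycin replicates 1, 2 and 3. All tunicamycin libraries lay below all vehicle libraries, at a log2 fold change of -0.175 (95% interval -0.33 to -0.02, edgeR adjusted p = 0.656). In TPM the gap was wider, with 121 ± 7.84 (SD, n = 3) in vehicle and 97.1 ± 5.62 (SD, n = 3) in tunicamycin. With effective-length offsets and a replicate block its edgeR adjusted p = 0.101, the lowest of any named member under any alternative run.

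The early endosomal Rab5a, whose upstream sequence is printed above, was at 282, 321 and 311 CPM in vehicle and 261, 273 and 286 CPM in tunicamycin. Vehicle replicate 1 lay below tunicamycin replicate 3, so the groups overlapped, at -0.15 (95% interval -0.31 to 0.00, edgeR adjusted p = 0.782). Its paralog Rab5b was at -0.035 (95% interval -0.155 to 0.08). Rab1b, which acts between the endoplasmic reticulum and the Golgi, was at -0.07 (95% interval -0.19 to 0.06) in counts and at 0.07 on log2(TPM + 1).

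Some Rab genes varied more within a group than between groups. Rab6b, a Golgi Rab, was at 588, 461 and 442 CPM in vehicle and 522, 493 and 402 CPM in tunicamycin. Replicate 1 was the highest and replicate 3 the lowest in both groups. Rab20, an endosomal Rab, was at 40.5, 63.9 and 53.9 CPM in vehicle and at 45.3, 48.2 and 48.8 CPM in tunicamycin, so the vehicle libraries spanned the tunicamycin ones. Rab19 and Rab32 had means under 5 log2 CPM, and their levels ran from 9.20 to 18.3 CPM and from 4.90 to 12.2 CPM over the 6 libraries. Their groups overlapped.

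Of 4 Vps genes tested, 0 were called, and no group pair was apart. For Vps37b the log2 fold change was -0.09 (95% interval -0.335 to 0.155) in counts and 0.05 on log2(TPM + 1). Its CPM was 7887, 8682 and 9978 in vehicle replicates 1, 2 and 3 and 7322, 8181 and 9432 in tunicamycin replicates 1, 2 and 3, lower in all 3 same-numbered pairs. With the replicate block its unadjusted p was 0.0278 and its edgeR adjusted p = 0.350. Vps28 was at 0.00 (95% interval -0.14 to 0.13). Both ESCRT-I subunits therefore had intervals inside a 1.5-fold change. Vps41, of the lysosomal HOPS tether, was at 213 ± 17.3 and 207 ± 8.41 CPM, and Vps45, which guides endosomal SNAREs, at 38.8 ± 1.13 and 38.8 ± 2.74 CPM (SD, n = 3 each, vehicle and tunicamycin).

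Sorting nexins, which bind phosphoinositides on endosomes, had members apart in both directions. Snx4, which returns cargo to recycling endosomes, was at 442, 492 and 473 CPM in vehicle and at 439, 390 and 420 CPM in tunicamycin. Tunicamycin replicate 1 came close to vehicle replicate 1, and the log2 fold change was -0.17 (95% interval -0.32 to -0.03, edgeR adjusted p = 0.638). Snx2, of the retromer-linked BAR nexins, was at 432, 396 and 396 CPM in vehicle and 393, 381 and 345 CPM in tunicamycin, at -0.13 (95% interval -0.28 to 0.02). Its groups were apart by a narrow gap.

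Snx33, a nexin with SH3 and BAR domains, was at 124, 128 and 110 CPM in vehicle and at 136, 136 and 140 CPM in tunicamycin. The groups were apart, at 0.19 (95% interval 0.00 to 0.38, edgeR adjusted p = 0.788). Snx32, a BAR nexin, was at 28.6, 33.7 and 22.3 CPM in vehicle and 33.1, 44.5 and 41.5 CPM in tunicamycin. Tunicamycin replicate 1 overlapped vehicle replicate 2, at 0.495 (95% interval 0.08 to 0.91, edgeR adjusted p = 0.638). Snx20, a leukocyte nexin that binds P-selectin glycoprotein ligand, was at -0.14 (95% interval -0.28 to 0.00) in counts and at 0.02 on log2(TPM + 1).

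Sec1 carries the Sec name but encodes a fucosyltransferase, not a vesicle protein. It had 0, 3 and 11 counts in vehicle replicates 1, 2 and 3 and 24, 35 and 23 counts in tunicamycin replicates 1, 2 and 3. The groups were apart, at 2.14 (95% interval 0.03 to 4.26, edgeR adjusted p = 0.741). It passed the filter on low counts mainly through its tunicamycin libraries, so a difference between the groups was favoured by the filter.

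In log2 CPM the 3 libraries of a group lay wholly above or below those of the other for 10 of 48 tested members. Of these, 4 were higher in tunicamycin, Kdelr2, Tmed8, Snx33 and Sec1, and 6 were lower, Trappc3, Rab18, Snx4, Snx2, Arf6 and Arl5a. Over all genes tested, 6.62% were apart and higher and 5.95% apart and lower, 12.6% together. With 1 library left out, fewer libraries have to be apart, and the share was larger among all genes too. It was 34.7% of members and 23.9% of all genes without vehicle replicate 1, 35.4% and 26.7% without vehicle replicate 2, and 34.7% and 24.0% without tunicamycin replicate 1, with 17 members in each. Without vehicle replicate 3 it was 25% and 23.6%, without tunicamycin replicate 2 it was 22.4% and 19.4%, and without tunicamycin replicate 3 it was 26.5% and 20.8%. Leaving out 1 library moved some of the 10 differences by over 1.5 times. The log2 fold change was -0.11 for Rab18, 0.12 for Snx33 and 3.54 for Sec1 without vehicle replicate 3, -0.06 for Arl5a and 0.09 for Tmed8 without vehicle replicate 2, and -0.07 for Snx2 without tunicamycin replicate 3. The members' number is a description, and none of the 10 genes passed the test over all genes.

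**Figure D3:**
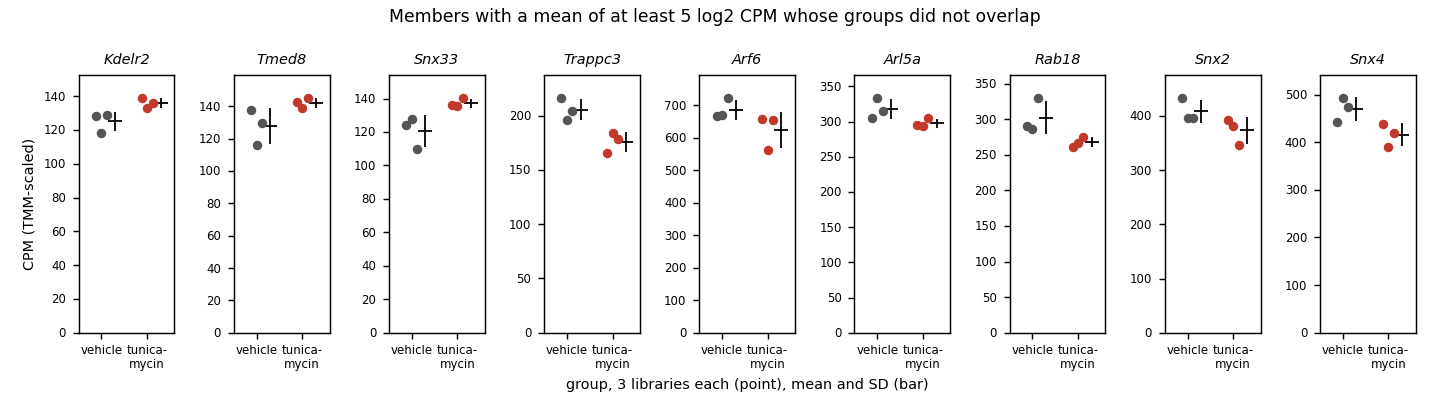
CPM of the 9 members at or above a mean of 5 log2 CPM whose groups did not overlap, with 3 vehicle (grey) and 3 tunicamycin (red) libraries as points and the mean with SD as a black bar. The axes start at 0, and the gap between the groups is small beside the level in every panel, as for Kdelr2 at 118 to 129 against 133 to 139 CPM.

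The sign changes between units led to a comparison of the deposited count with the deposited TPM of the same gene, chosen after the values were seen. The ratio of count to TPM is proportional to the effective length that the quantification gave the gene in that library, and was divided by its library median. Of 41 members with at least 10 counts in every library, 0 had a higher and 3 a lower ratio in tunicamycin by limma at an adjusted p under 0.05, against 1.64% and 6.94% of 2923 genes. This share is near that of all genes. Relative to the vehicle mean, Arf6 was at 0.996, 1.00 and 1.00 in vehicle and 0.902, 0.907 and 0.894 in tunicamycin (limma adjusted p = 0.0104). GENCODE M21 gives Arf6 a single transcript.

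Snx20 was at 0.92 of the vehicle mean (limma adjusted p = 0.0168) and Vps37b at 0.937 (limma adjusted p = 0.0474). There was 1 such member after leaving out vehicle replicate 1 or tunicamycin replicate 2, and 0 after leaving out tunicamycin replicate 1 or 3. Rab18 was at 1.19, 1.11 and 1.12 in tunicamycin replicates 1, 2 and 3 and Lman2 at 0.914, 0.808 and 0.779, neither past the threshold (limma adjusted p = 0.0555 and 0.0965). Stx7 was at 1.26, 0.744 and 1.07 in vehicle and 0.716, 0.706 and 0.814 in tunicamycin, so the vehicle libraries differed most among themselves. The 3 members with the highest transcript GC content, Arf6, Vps37b and Rab6b, at 60.0%, 59.6% and 58.6%, had log2 differences of the ratio of -0.15, -0.094 and 0.001. GC content and the log2 difference of the ratio had a Spearman correlation of -0.339 over 41 members and -0.382 over 2913 genes. Their Pearson correlation was -0.192 over the members and -0.198 over all these genes. Among genes with a single transcript it was -0.848 over 8 members, of which Arf6 had both the highest GC content and the lowest difference, and -0.524 over 919 genes. This is a description across genes of the same 6 libraries, and the part of GC content in the members' values was not tested.

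**Figure D4:**
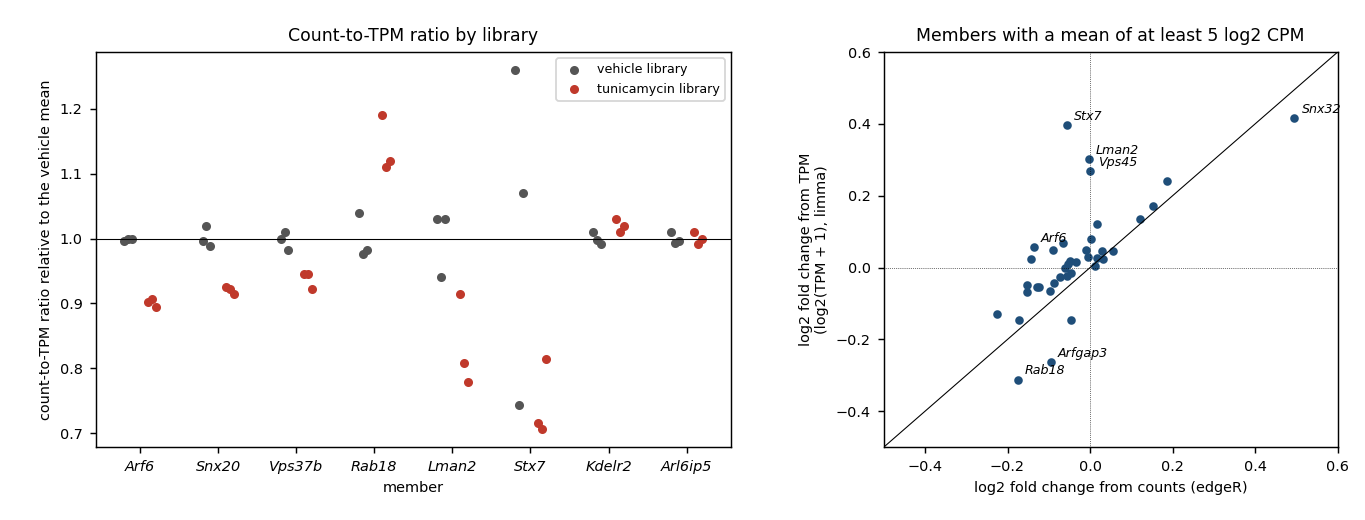
Left, count-to-TPM ratio relative to the vehicle mean for 8 members, with 3 vehicle (grey) and 3 tunicamycin (red) libraries each; Arf6, Snx20 and Vps37b are lower in tunicamycin and Kdelr2 and Arl6ip5 lie near 1. Right, log2 fold change from TPM against that from counts for the 38 members whose mean reached 5 log2 CPM; Stx7 and Lman2 lie near 0 from counts and at 0.40 and 0.30 from TPM.

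Other genes of the pathway, from lists outside the member families, gave few differences. Of 6 genes of targeting to the endoplasmic reticulum tested, edgeR called 0, DESeq2 called 1 lower, and 2 had an unadjusted p under 0.05, Srp9 and Srp54b. Srp54b, a copy of the GTPase subunit of the signal recognition particle, was at 106, 120 and 92.2 TPM in vehicle and 83.6, 73.5 and 80.5 TPM in tunicamycin. Its log2 fold change was -0.47 (95% interval -0.69 to -0.25), with an edgeR adjusted p = 0.234 and a DESeq2 adjusted p = 0.00915. It was also called by edgeR with a replicate block (adjusted p = 0.00112) and without a filter on low counts (adjusted p = 0.00613). Over all alternatives its adjusted p ran from 0.00112 to 1.00. Its near-identical copies Srp54a and Srp54c were at 0.16 (95% interval -0.10 to 0.42) and -0.10 (95% interval -0.24 to 0.05), and reads can be split between them, so these values are uncertain.

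Srp9, another subunit of the particle, was at -0.18 (95% interval -0.34 to -0.02) and Spcs2, of the signal peptidase, at -0.09 (95% interval -0.22 to 0.04). Of 8 partners of traffic between the endoplasmic reticulum and the Golgi, 0 were called by edgeR, DESeq2 or limma and 0 had an unadjusted p under 0.05. The retrieval protein Rer1 was at 0.00 (95% interval -0.15 to 0.14) and Bcap31, an export chaperone, at -0.03 (95% interval -0.20 to 0.14). The lists of clathrin and adaptors, exocyst and secretion, and ESCRT partners had 3, 3 and 6 tested genes. In them 0 were called by the same 3 tools and 0 had an unadjusted p under 0.05, with medians of 0.06, -0.08 and 0.01. The list of the unfolded protein response outside the member families held 18 genes, of which 5 had a row and were tested. Of these 5, 0 were called by these tools and 1, Calr, had an unadjusted p under 0.05, at -0.14 (95% interval -0.25 to -0.02). Dnajb9, Dnajc3, Creld2 and Atf4 were at 0.05, 0.01, -0.15 and -0.05, and each 95% interval included 0. The other listed genes were not analysed here.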

How the data were processed

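Salmon, bcl2fastq, DESeq2 and build GRCm39 are named in the submitters' processing notes without versions or roles, and no annotation is stated. The authors deposited estimated counts per gene, partly fractional and not scaled to depth, and TPM for the same rows. Symbols were matched for 13627 of 13685 identifiers; positions are from GENCODE M21 on GRCm38 and were not converted. Estimated counts were rounded, filtered with filterByExpr (3613 genes left), scaled with TMM, and compared by edgeR 4.0.16 under R 4.3.3 (quasi-likelihood F test, robust, 2-sided, Benjamini-Hochberg over all genes, threshold 0.05). Fold changes are log2, tunicamycin over vehicle. CPM values use TMM-scaled totals, and log2 CPM a prior count of 2. Count-to-TPM ratios were tested with limma 3.58.1. DESeq2 1.42.0 and limma on log2(TPM + 1) and log2(TPM + 0.1) were alternatives. The fit was tested on simulated counts, and the outcome is not given here.

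Members and lists were chosen with earlier results of these data known. Named were, per role group, the 2 most abundant tested members and the one with the lowest p at a mean of at least 5 log2 CPM, up to 10 members with groups apart at that mean, the 3 with the widest range within a group, and the 2 most abundant genes of each list. Arl2, Arfgap3, Rab1b, Rab5a, Rab6b, Rab24, Snx20, Snx32, Stx7 and Srp54b, and also Arl4d, Kdelr3, Rab33a, Srp54a, Srp54c, Trappc5, Vps41 and Vps45, were named after their values were seen.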

Additional observations from a re-analysis of the deposited data

How the results depend on the processing

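No member was called in either direction under any of the 16 alternatives run, which were other scalings, filters, tools and offsets, a replicate block, and leaving out each library. The members' median log2 fold change, -0.045, was -0.004 with no composition factor and 0.016 in limma on log2(TPM + 1) and log2(TPM + 0.1), where the median of all genes was 0.043, 0.046 and 0.064. It ran from -0.052 to -0.020 when each library was left out. The number of members with groups apart, 10, ran from 11 to 17 when each library was left out. This was 22.4% to 35.4% of members, against 19.4% to 26.7% of all genes. With all libraries it was 8 with no composition factor, in both limma runs and with effective-length offsets. With DESeq2 and with its size factors in edgeR it was 11. The share of all genes under these settings is not given here. The number with a different count-to-TPM ratio, 3, ran from 0 to 3 when each library was left out. Of 48 named genes, 23 changed sign under some alternative, at 3 decimals, and none of these had an adjusted p under 0.05 there. With effective-length offsets the values were -0.029 for Sar1b, -0.243 for Sec23ip, 0.251 for Lman2, -0.056 for Trappc10, -0.018 for Vamp3, 0.001 for Arf6, -0.034 for Cog5, 0.137 for Exoc3, 0.321 for Stx7, -0.035 for Rab24 and 0.008 for Rab1b. With these offsets and a replicate block they were -0.032 for Sar1b, 0.250 for Lman2, -0.055 for Trappc10, -0.014 for Vamp3, -0.003 for Rab19, -0.030 for Cog5, 0.138 for Exoc3, 0.357 for Stx7, -0.035 for Rab24 and 0.008 for Rab1b. In limma on log2(TPM + 1) they were -0.038 for Sec23ip, 0.301 for Lman2, 0.056 for Arf6, 0.016 for Rab5b, 0.048 for Vps37b, 0.030 for Vps28, 0.048 for Rer1, 0.190 for Exoc3, 0.031 for Atf4, 0.024 for Snx20, 0.397 for Stx7, 0.009 for Arl2 and 0.067 for Rab1b. On log2(TPM + 0.1) they were -0.027 for Sec23ip, 0.308 for Lman2, 0.057 for Arf6, 0.016 for Rab5b, 0.048 for Vps37b, 0.030 for Vps28, 0.048 for Rer1, 0.197 for Exoc3, 0.031 for Atf4, 0.025 for Snx20, 0.416 for Stx7, 0.009 for Arl2 and 0.068 for Rab1b. With no composition factor they were 0.038 for Lman2, 0.006 for Rab5b, 0.037 for Vps28, 0.038 for Rer1, 0.014 for Bcap31 and 0.023 for Ap3b1. When each library was left out, values ran from -0.079 to 0.069 for Sar1b, -0.161 to 0.391 for Sec23ip, -0.021 to 0.023 for Lman2, -0.024 to 0.036 for Trappc10, -0.039 to 0.084 for Vamp3, -0.061 to 0.004 for Rab5b, -0.188 to 0.004 for Vps37b, -0.060 to 0.043 for Vps28 and -0.256 to 0.288 for Rab19. They ran from -0.313 to 0.009 for Rab20, -0.043 to 0.050 for Rer1, -0.093 to 0.027 for Bcap31, -0.034 to 0.096 for Cog5, -0.066 to 0.029 for Ap3b1, -0.087 to 0.024 for Atf4, -0.153 to 0.063 for Rab6b, -0.013 to 0.071 for Rab24 and -0.139 to 0.019 for Arl2. The cause of these changes was not tested.

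With the replicate block 14 genes were called higher and 22 lower over all genes, against 2 and 1, with 0 members among them and a members' median of -0.047; for the count-to-TPM ratio, 2 members were called. A block cannot change which groups are apart. Each tunicamycin library is named as the vehicle library of the same number with plusTun added. The main fit left this number out. The labels do not say that a number marks a shared source, and the source itself was not tested. Some levels followed the number closely. By number, summed plasma cell markers were 106, 187 and 22.8 TPM without the drug and 113, 198 and 26.4 TPM with it. Sums of macrophage and T cell markers also kept their order, with Lyz2 the most abundant macrophage marker. The less abundant macrophage markers C1qa, C1qb and C1qc did not keep theirs. Sums for CD8 T cells, B cells, NK cells and regulatory T cells did not. Deviations of same-numbered libraries correlated at 0.324, 0.116 and 0.269 over 1912 genes whose mean reached 5 log2 CPM, at 0.0371, 0.187 and 0.107 over all 3613 genes, and at 0.59, 0.619 and -0.00978 over the 48 members, and 6 of 6 libraries were closest to the one sharing their number over both sets of all genes, 4 of 6 over the members. Depth limits members under 5 log2 CPM, whose intervals reach beyond a 1.5-fold change.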
